A study of Homo sapiens with 12 samples.

Results

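The collagen gene family was examined in H1 cells, an established human embryonic stem cell line, during differentiation toward the heart lineage. Members were all genes whose symbol is COL, a number, A and a number, which gives 44 of the 61806 genes in the table. Each gene encodes a chain, and 3 chains wind into a triple helix, either of the same chain or of different chains. Collagens I, II, III, V and XI form the fibrils of connective tissue, collagen IV forms the network of basement membranes, and collagen VI forms beaded filaments around cells. In the developing heart, the fibrillar chains are made mainly by fibroblasts, cells of the epicardium and the valves, while cardiomyocytes lie on a basement membrane that they help to make. The 44 genes were sorted by structure into 9 classes. These are 11 fibrillar genes, 10 FACIT genes (chains with interrupted helices that attach to fibrils), 6 basement membrane genes, 5 beaded filament genes, 4 transmembrane genes, 3 genes of short-chain networks, 2 multiplexins, 1 anchoring fibril gene and 2 others.

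All cells were wild type H1 cells induced to mesendoderm and kept in DF medium, and each of 3 treatments was sampled as 2 libraries at Day 12 and again at Day 16. Cells labelled NP-IWP2 remained in their original wells and were treated with IWP2, an inhibitor of WNT signaling. In the study's methods IWP2 was given for a short period from Day 2 and was not kept up to sampling. P-DF cells were passaged on Day 2, that is, detached and plated into new Matrigel-coated wells, and had no WNT inhibitor. The P-IWP2 treatment joined the Day 2 passage with IWP2. A static culture without IWP2 was not analysed here, so P-DF differed from NP-IWP2 in both passaging and the inhibitor, and P-IWP2 against NP-IWP2 was the comparison with IWP2 on both sides. In the study, passaging also set a split ratio and could include insulin at replating. The study also states that a ROCK inhibitor was used in every differentiation experiment after its survival tests. The labels give none of these for these libraries. The labels give replicate numbers but not whether libraries came from separate cultures, so p-values measure the spread between these libraries, which may be technical.

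Libraries held 14885589 to 19176239 counted reads, with a median of 16452289. Values are given as FPKM (fragments scaled to exon length and to the library's counted reads), and differences were tested on the read counts with edgeR's quasi-likelihood test, in which 41 of the 44 genes passed the filter on low counts among 19505 genes tested. A gene was called at a Benjamini-Hochberg adjusted p under 0.05 over all genes tested. The Day 12 library P-IWP2 replicate 5 stood apart from its partner, replicate 6. The correlation of log2 CPM (counts scaled to the library total) across genes between these libraries was 0.922, against 0.988 to 0.995 in the other 5 groups. In replicate 5, COL3A1, COL1A1 and COL14A1 were near or above the static level, and COL22A1, at 1.52 FPKM, was far under the 33.6 to 39.1 FPKM of all other Day 12 libraries. Its values are therefore given separately, and counts of calls are given with and without it.

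In static cells, COL3A1 was the most abundant collagen transcript, while in P-DF cells on both days and in P-IWP2 cells on Day 16 this place was held by COL2A1. The summed FPKM of the family was 1724.8 ± 30.3 (SD, n = 2) in NP-IWP2 cells on Day 12 and 2282.3 ± 6.88 on Day 16. P-DF cells had 896 ± 74.2 and 936 ± 3.92, and the Day 16 P-IWP2 libraries had 1156.5 ± 4.5. On Day 12, P-IWP2 replicate 5 held 1824.1 FPKM of collagen, above both static libraries, and replicate 6 held 934. These are bulk samples, so fewer cells of a type and less RNA per cell cannot be told apart.

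**Figure D1:**
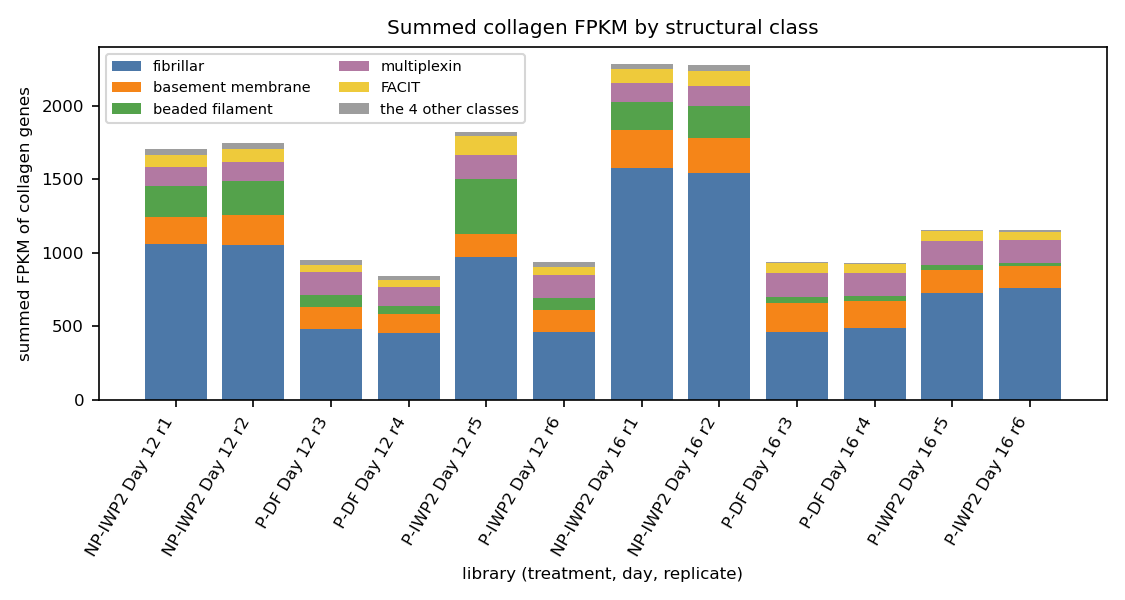
Summed FPKM of the 44 collagen genes in each of the 12 libraries, stacked by structural class (bars start at 0; r is the replicate). The 4 static libraries and the Day 12 library P-IWP2 replicate 5 reach 1703.4 to 2287.2 FPKM, and the other 7 passaged libraries 844 to 1159.7.

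The make-up of the family also differed between the treatments. On Day 16, beaded filament genes held 8.79% ± 0.78 (SD, n = 2) of the summed collagen FPKM in static cells, 4.27% ± 0.50 with P-DF and 2.15% ± 0.40 with P-IWP2. Fibrillar genes held 68.4% ± 0.79 in static cells, 50.6% ± 2.1 with P-DF and 64.4% ± 2.2 with P-IWP2, and COL2A1 alone made up 54.1% and 55.9% of all collagen FPKM in the P-IWP2 libraries. Multiplexins, which were almost entirely COL18A1, held 5.98% ± 0.09 in static cells, 16.8% ± 0.63 with P-DF and 13.7% ± 0.83 with P-IWP2. Basement membrane genes held 10.9% ± 0.57, 20.2% ± 0.54 and 13.4% ± 0.25. The shares were not tested. A larger share does not mean a higher level here, since the total was lower in passaged cells.

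Of the 44 genes, 34 reached 1 FPKM in at least 1 library and 22 reached 10 FPKM. The other 10 stayed under 1 FPKM in every library. They are COL5A3 and COL24A1 among the fibrillar genes, COL4A3, COL4A4, COL6A5, COL10A1, COL17A1, COL19A1, COL20A1 and COL28A1. COL4A3, COL17A1 and COL20A1 did not pass the filter and were not tested.

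**Figure D2:**
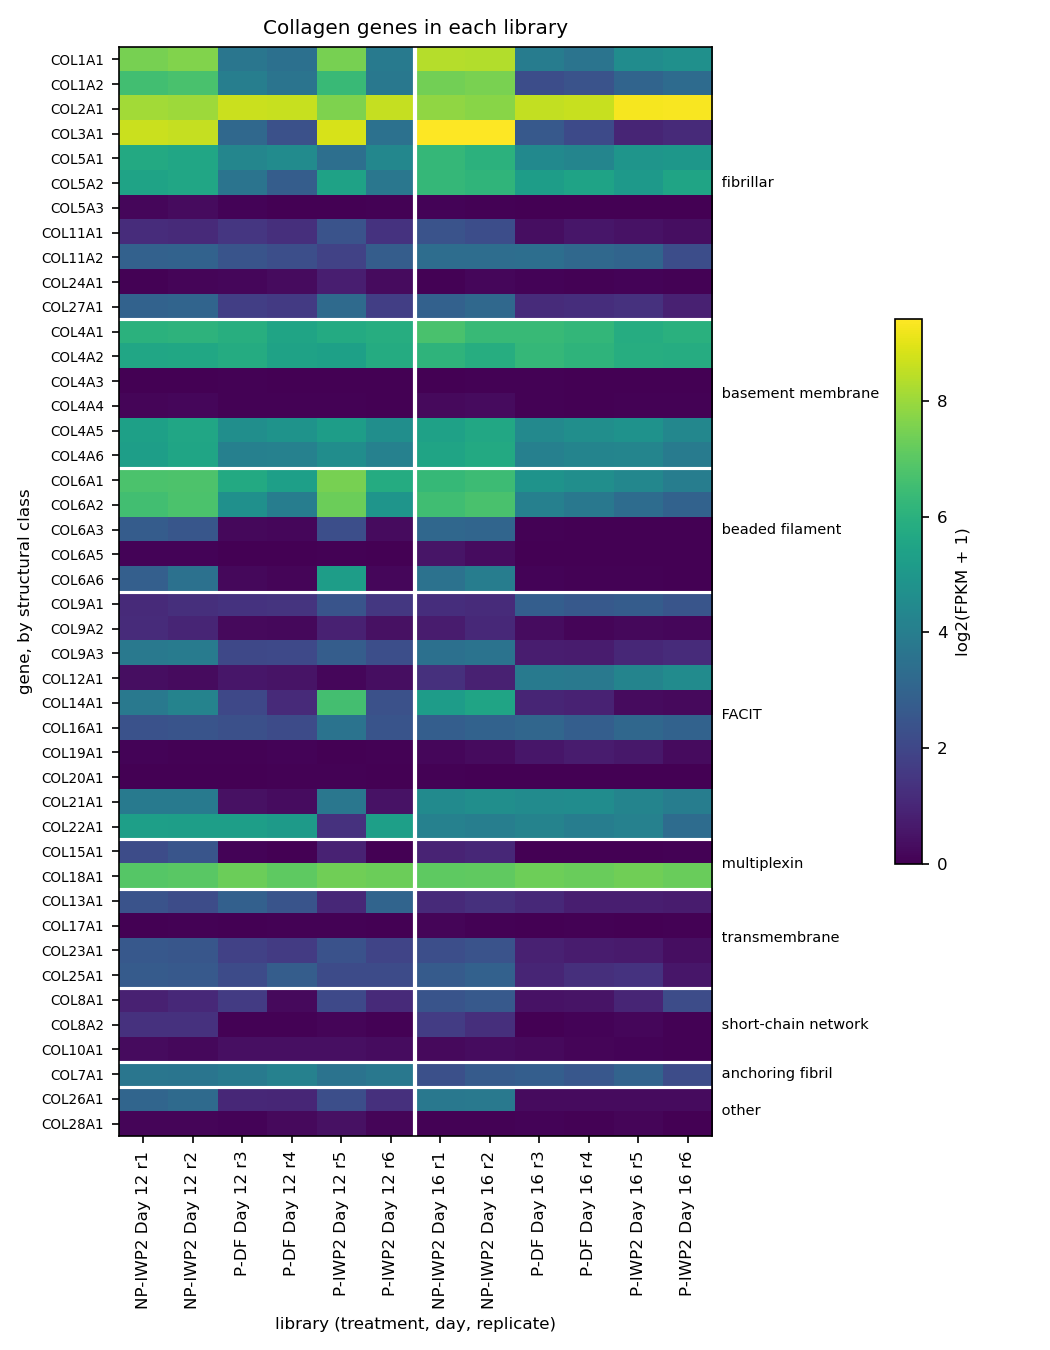
Level of each of the 44 collagen genes (rows, by structural class) in each of the 12 libraries (columns, Day 12 left and Day 16 right of the white line), as log2(FPKM + 1). COL1A1, COL1A2, COL3A1, COL6A1 and COL6A2 are bright in the static libraries and in the Day 12 library P-IWP2 replicate 5, while COL2A1, COL4A1, COL4A2 and COL18A1 are bright in all 12.

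The comparison of passaged with static cells asks which transcripts differ once mesendoderm cells have been moved to a new surface. On Day 12, 12 of the 41 tested collagen genes were lower in P-DF cells and 0 were higher. In this comparison 4.01% of all genes tested were called, 0.697% higher and 3.32% lower. On Day 16, 23 were lower and 3 higher in P-DF cells (15.3% of all genes tested were called, 5.39% higher and 9.86% lower). In P-IWP2 cells, 5 were lower and 0 higher on Day 12 (1.66% of all genes, 0.328% higher and 1.33% lower), and 22 were lower and 3 higher on Day 16 (17.1% of all genes, 7.15% higher and 9.95% lower). Both passaged treatments were compared with the same NP-IWP2 libraries, so these results are not independent of each other.

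The median log2 fold change of the 41 genes was -1.15 for P-DF on Day 12, -1.61 for P-DF on Day 16, -0.51 for P-IWP2 on Day 12 and -1.30 for P-IWP2 on Day 16, beside medians of 0.00, -0.02, 0.01 and -0.03 over all genes tested. Without the Day 12 library P-IWP2 replicate 5, the Day 12 calls numbered 23 for P-DF (2 higher and 21 lower) and 22 for P-IWP2 (3 higher and 19 lower), where 21.9% of all genes tested were called for P-DF (8.25% higher and 13.6% lower) and 15% for P-IWP2 (5.45% and 9.57%). The Day 16 calls then numbered 29 for P-DF (6 higher and 23 lower) and 30 for P-IWP2 (6 higher and 24 lower), where 32.4% of all genes were called for P-DF (14.4% higher and 18.1% lower) and 34.8% for P-IWP2 (16.3% and 18.5%). The 6 genes higher on Day 16 were COL2A1, COL9A1, COL12A1, COL16A1, COL18A1 and COL19A1 in both treatments, and those higher on Day 12 were COL2A1 and COL12A1 for P-DF and COL2A1, COL9A1 and COL13A1 for P-IWP2. Leaving out its partner, replicate 6, in its place also gave more calls on Day 12 in both treatments, among collagen genes and over all genes tested alike.

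The counts also rested on single libraries of the groups compared. In P-DF cells, 3 genes were called on Day 12 without either static replicate, 2 without replicate 3 and 1 without replicate 4, and on Day 16 16 and 14 were called without static replicates 1 and 2, and 12 and 9 without P-DF replicates 3 and 4. In P-IWP2 cells, 1 gene was called on Day 12 without either static replicate, and on Day 16 14 were called without static replicate 2, and 15 and 11 without P-IWP2 replicates 5 and 6. In the same fits, the share of all genes called ranged from 0.4% to 0.637% for P-DF on Day 12 and from 2.59% to 5.42% on Day 16, and for P-IWP2 it was 0.279% and 0.364% on Day 12 and 4.21% to 7.64% on Day 16. COL9A3 was the gene called on both days and in both treatments in all 12 fits that each left out 1 library.

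**Figure D3:**
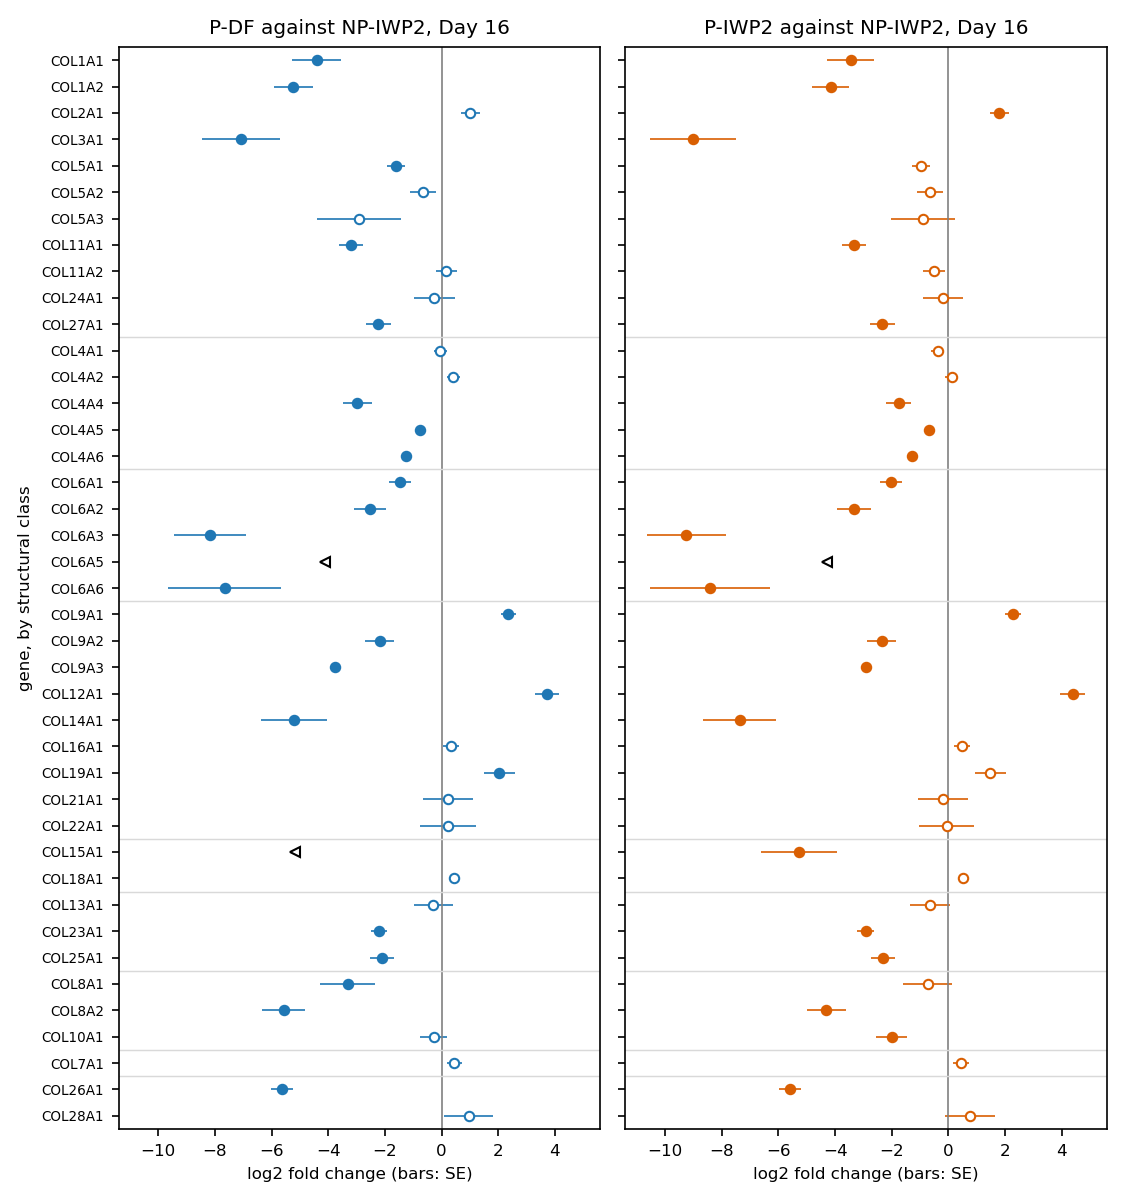
Log2 fold change of the 41 tested collagen genes in P-DF cells (left) and P-IWP2 cells (right) against NP-IWP2 cells on Day 16, by structural class, from edgeR (bars are SE, filled points are called, open points are not). Triangles mark genes with 0 counts in the passaged group, placed at the upper limit that 3 counts per library allow. Beaded filament genes all lie left of 0, and COL9A1 and COL12A1 right of it in both panels.

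COL3A1, the chain of collagen III, is abundant in soft and embryonic tissue. Static libraries held 401 and 383 FPKM on Day 12 and 679 and 670 FPKM on Day 16. P-DF libraries held 8.17 and 3.99 FPKM on Day 12 and 5.23 and 3.28 FPKM on Day 16, and the P-IWP2 libraries 0.94 and 1.18 FPKM on Day 16. These passaged libraries were all far under every static library. The Day 12 P-IWP2 replicates were 457 FPKM in replicate 5 and 10.4 FPKM in replicate 6, the first above and the second far under the static level. The log2 fold change was -5.92 ± 1.32 (SE, adjusted p = 0.0417) in P-DF cells on Day 12, -7.08 ± 1.39 (adjusted p = 0.0108) on Day 16 and -9.03 ± 1.52 (adjusted p = 0.00544) in P-IWP2 cells on Day 16. The Day 12 P-IWP2 value was -0.87 ± 1.07 (adjusted p = 0.871), and without replicate 5 it was -5.14 ± 0.43 (adjusted p = 4.98e-06).

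Collagen I, the main protein of tendon, skin and scar, is built of the COL1A1 and COL1A2 chains. COL1A1 stood at 177 and 198 FPKM in static cells on Day 12 and at 324 and 322 on Day 16. It stood at 12.0 and 10.1 FPKM in P-DF cells on Day 12, at 14.6 and 11.3 on Day 16 and at 23.0 and 25.6 in P-IWP2 cells on Day 16. COL1A1 was thus lower in all these passaged libraries, with log2 fold changes of -4.00 ± 0.86 (adjusted p = 0.0372), -4.41 ± 0.87 (adjusted p = 0.0112) and -3.45 ± 0.83 (adjusted p = 0.023). On Day 12, P-IWP2 replicate 5 was at 176 FPKM and replicate 6 at 13.2, and the difference was not called (-1.10 ± 0.77, adjusted p = 0.688).

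COL1A2 stood at 93.9 and 102 FPKM in static cells on Day 12 and 169 and 182 on Day 16. It stood at 15.2 and 11.2 FPKM in P-DF cells on Day 12, 3.65 and 4.26 on Day 16, and 7.28 and 8.85 in P-IWP2 cells on Day 16. COL1A2 was called lower in the same comparisons as COL1A1, by -2.81 ± 0.62 (adjusted p = 0.0399), -5.24 ± 0.69 (adjusted p = 0.00189) and -4.16 ± 0.65 (adjusted p = 0.00411). The Day 12 P-IWP2 values were 82.5 FPKM in replicate 5 and 12.7 in replicate 6 (-1.14 ± 0.58, adjusted p = 0.515). The ratio of COL1A1 to COL1A2 FPKM was 1.77 to 1.94 in static libraries. It was 0.792 and 0.899 in P-DF libraries on Day 12, 2.65 and 4.01 on Day 16, and 2.90 and 3.16 in P-IWP2 libraries on Day 16, so the chains did not differ to the same extent.

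COL2A1, the chain of collagen II, is best known from cartilage and is also transcribed in the embryonic heart. Its differences had the opposite sign from those of collagens I and III. Static libraries held 276 and 262 FPKM on Day 12 and 231 and 215 on Day 16, while P-DF libraries held 405 and 393 and then 369 and 396. P-IWP2 libraries held 190 FPKM in replicate 5 and 380 in replicate 6 on Day 12, and 627 and 645 on Day 16. COL2A1 rose in P-IWP2 cells on Day 16, by 1.79 ± 0.34 on the log2 scale (adjusted p = 0.00861). The differences in P-DF cells, 0.66 ± 0.33 on Day 12 (adjusted p = 0.277) and 1.01 ± 0.33 on Day 16 (adjusted p = 0.069), and in P-IWP2 cells on Day 12, 0.10 ± 0.33 (adjusted p = 0.965), were not called. Without the Day 12 library P-IWP2 replicate 5 all were called higher, at 0.65 ± 0.13 (adjusted p = 0.00213) and 1.01 ± 0.13 (adjusted p = 4.47e-05) for P-DF and 0.59 ± 0.15 (adjusted p = 0.0179) for P-IWP2 on Day 12. The listed markers of cartilage cells other than collagens did not follow COL2A1. Their summed FPKM (SOX9, ACAN, MATN3, HAPLN1 and CNMD) was 17.6 to 39.5 in static libraries and 3.33 to 9.61 in passaged libraries other than replicate 5, and ACAN, the core protein of the main cartilage proteoglycan, was at most at 0.59 FPKM in all 12. Replicate 5 was at 37.8.

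**Figure D4:**
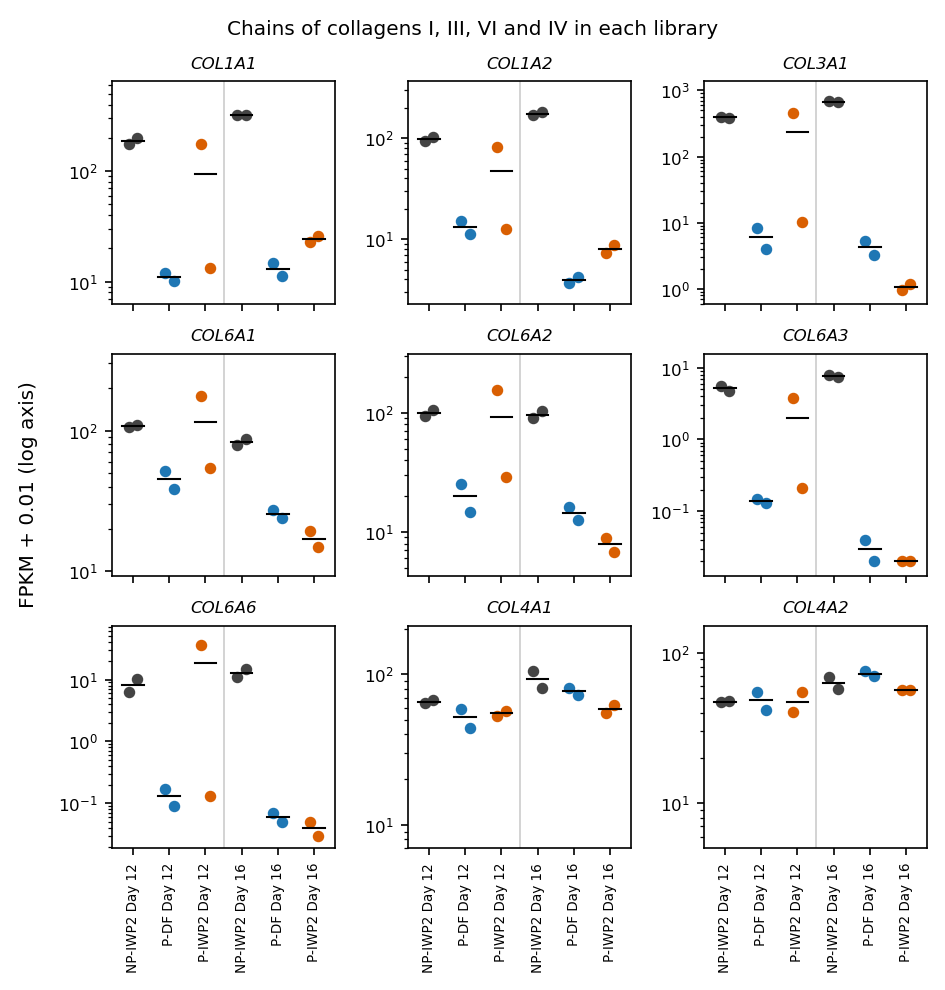
FPKM + 0.01 (log axis) of 9 collagen genes in the 2 libraries of each group (points; black lines are group means; the grey line separates the days). For COL1A1, COL1A2, COL3A1 and the COL6 genes all P-DF libraries and the Day 16 P-IWP2 libraries lie under the static ones, while COL4A1 and COL4A2 lie within a narrow range in every group.

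Collagens V and XI regulate the width of fibrils. COL5A1 stood at 46.6 to 76.6 FPKM in static libraries and at 9.91 to 30.7 FPKM in passaged ones, without overlap. With 2 libraries per group such separation was common over all genes tested. On Day 12, 41.2% of genes had both P-DF libraries under both static ones, and 24.6% above them. On Day 16 these shares were 50.2% and 18.8%. For P-IWP2 they were 17.7% and 15.7% on Day 12, and 50.7% and 16.2% on Day 16. COL5A1 was called lower in P-DF cells on Day 16 (-1.61 ± 0.32, adjusted p = 0.0118) and in P-IWP2 cells on Day 12 (-1.72 ± 0.32, adjusted p = 0.0332), where replicate 5 was at 9.91 and replicate 6 at 19.4 FPKM. It was not called in P-DF cells on Day 12 (-1.16 ± 0.32, adjusted p = 0.0753) or in P-IWP2 cells on Day 16 (-0.97 ± 0.32, adjusted p = 0.0648). Here replicate 5 was lower than its partner, unlike for COL1A1 and COL3A1. Its chain partner COL5A2 was at 11.4 and 5.88 FPKM in P-DF cells on Day 12 against 43.4 and 46.4 in static cells (-2.28 ± 0.47, adjusted p = 0.0337). By Day 16 COL5A2 was at 36.9 and 43.2 FPKM in P-DF cells and 33.1 and 44.5 in P-IWP2 cells against 76.7 and 71.2 in static cells, and neither difference was called.

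COL11A1 was called lower on Day 16 only, at 0.26 and 0.48 FPKM in P-DF cells and 0.37 and 0.29 in P-IWP2 cells against 4.36 and 3.65 in static cells (log2 fold changes -3.20 and -3.34). COL27A1, a fibrillar chain of cartilage, was also lower on Day 16 in both passaged treatments (-2.23 and -2.33), with 6.49 and 7.96 FPKM in static cells and 0.83 to 1.56 in passaged cells. COL11A2 stayed between 2.60 and 9.59 FPKM and COL5A3 and COL24A1 under 1 FPKM, and none was called. In all, 6 of 11 fibrillar genes were lower on Day 16 in P-DF cells, and 5 were lower and 1 higher in P-IWP2 cells, with median log2 fold changes of -2.23 and -0.97. Of all genes tested, 9.86% were lower and 5.39% higher for P-DF, and 9.95% lower and 7.15% higher for P-IWP2.

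Basement membrane genes did not act as a block. COL4A1 and COL4A2, whose chains form the collagen IV of nearly all basement membranes, lie head to head on chromosome 13, and COL4A5 and COL4A6, chains of more specialized basement membranes, lie head to head on the X chromosome. RefSeq promoter windows (GRCh38.p14) were at hand for 32 of the 44 genes, in 44 windows. The members without a window are COL1A1, COL1A2, COL2A1, COL3A1, COL5A2, COL6A1, COL6A5, COL8A1, COL9A3, COL14A1, COL20A1 and COL22A1. The 126 bases between the starts of COL4A1 (minus strand) and COL4A2 (plus strand), chr13:110307158-110307283, are shown because both transcripts begin at their edges, as are the 250 bases before the start of COL4A5, chrX:108439588-108439837, which lie within the 379 bases between the starts of COL4A6 and COL4A5. Both are written on the plus strand, 5′ to 3′, with CCAAT, or its reverse complement ATTGG, in capitals.
COL4A1/COL4A2: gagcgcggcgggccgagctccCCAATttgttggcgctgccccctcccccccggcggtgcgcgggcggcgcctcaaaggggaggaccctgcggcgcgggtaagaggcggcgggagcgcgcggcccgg
COL4A5: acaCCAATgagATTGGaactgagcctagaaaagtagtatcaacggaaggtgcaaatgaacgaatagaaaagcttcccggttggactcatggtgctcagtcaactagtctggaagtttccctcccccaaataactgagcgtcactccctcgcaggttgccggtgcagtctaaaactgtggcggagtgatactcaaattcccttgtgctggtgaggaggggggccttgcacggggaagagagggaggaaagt

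The 5 letters CCAAT were present, on either strand, in the 250 bases before the start in 32.0% of all 35116 RefSeq windows and in 12 of the 44 collagen windows. The stretch between COL4A1 and COL4A2 held 1 match and the window of COL4A5 held 2. A match of letters is a description and not a binding site.

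COL4A1 was at 64.2 and 66.9 FPKM in static cells on Day 12, at 58.9 and 44.3 in P-DF cells and at 53.2 and 57.0 in P-IWP2 cells. The Day 16 values were 104.7 and 80.5 FPKM in static cells, 81.0 and 73.3 in P-DF cells and 55.6 and 62.6 in P-IWP2 cells. None of the 4 comparisons called COL4A1, with log2 fold changes of -0.26 ± 0.23 (adjusted p = 0.536) and -0.04 ± 0.23 (adjusted p = 0.921) in P-DF cells and -0.26 ± 0.23 (adjusted p = 0.765) and -0.38 ± 0.23 (adjusted p = 0.273) in P-IWP2 cells on Day 12 and Day 16.

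COL4A2 was at 47.0 to 68.6 FPKM in static libraries and at 41.8 to 75.2 FPKM in passaged libraries other than replicate 5. It was not called either, with log2 fold changes of 0.12 ± 0.24 (adjusted p = 0.8), 0.42 ± 0.24 (adjusted p = 0.265), 0.00 ± 0.24 (adjusted p = 0.999) and 0.11 ± 0.24 (adjusted p = 0.784), in the same order. These SE do not exclude modest differences in either gene. The ratio of COL4A1 to COL4A2 FPKM was 1.37 to 1.53 in the static libraries. It was 1.33 in P-IWP2 replicate 5 and 0.981 to 1.11 in the 7 other passaged libraries. The ratios were not tested. The gene models of the pair overlap by 1346 bases on opposite strands, and whether counting used strand is not given in the sources used here.

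COL4A6 was called lower in all 4 comparisons, with log2 fold changes of -1.23 and -1.26 in P-DF cells and -1.08 and -1.30 in P-IWP2 cells (adjusted p = 0.00479, 0.00153, 0.0114 and 0.00125). Its static libraries held 37.4 to 52.2 FPKM and its passaged ones 14.0 to 23.5. The groups of COL4A6 thus did not overlap on either day, and 17.7% to 50.7% of all genes tested were lower without overlap in these comparisons. COL4A5, its neighbor, fell by 0.77 ± 0.18 in P-DF cells (adjusted p = 0.0233) and by 0.68 ± 0.18 in P-IWP2 cells (adjusted p = 0.0344) on Day 16, from 40.5 and 48.6 FPKM to 19.5 to 26.5. COL4A4, a chain of the kidney and inner ear membranes, was also called lower on Day 16 but rested on 3 to 39 counts per library.

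All 5 beaded filament genes were lower in both passaged treatments on Day 16. In these comparisons 9.86% (P-DF) and 9.95% (P-IWP2) of all genes tested were called lower. Collagen VI is assembled from COL6A1, COL6A2 and 1 further chain, which is COL6A3 or one of its relatives COL6A5 and COL6A6. COL6A1 was at 79.0 and 87.3 FPKM in static cells on Day 16, 27.3 and 24 in P-DF cells and 19.3 and 14.8 in P-IWP2 cells (-1.47 ± 0.38, adjusted p = 0.0318, and -2.02 ± 0.39, adjusted p = 0.00927). COL6A2 was at 90.3 and 103 FPKM, 16.1 and 12.5, and 8.93 and 6.82 (-2.52 ± 0.58, adjusted p = 0.0197, and -3.34 ± 0.60, adjusted p = 0.00693). COL6A3 was at 7.81 and 7.37 FPKM, 0.03 and 0.01, and 0.01 and 0.01 (-8.19 ± 1.27, adjusted p = 0.0041, and -9.25 ± 1.38, adjusted p = 0.0033). The fitted drop was thus deeper for COL6A3 than for COL6A1 and COL6A2, and COL6A1 was the most abundant of the 5 genes in passaged cells.

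COL6A6, an alternative to COL6A3 found in few tissues, was at 10.8 and 15.03 FPKM in static cells on Day 16, 0.06 and 0.04 in P-DF cells and 0.04 and 0.02 in P-IWP2 cells, which is 4 to 9 counts per passaged library. Its log2 fold changes were -7.66 ± 2.00 (adjusted p = 0.0327) and -8.41 ± 2.12 (adjusted p = 0.027). COL6A5 had 79 and 37 counts in static cells and 0 counts in all 4 passaged libraries of Day 16. It was thus at least 17.3-fold lower in P-DF cells and at least 19.4-fold lower in P-IWP2 cells, with a count of 0 set to its upper limit of 3 counts per library. With COL6A5 at these limits, the median log2 fold change of the class was -4.11 for P-DF and -4.28 for P-IWP2 (-7.66 and -8.41 as fitted). The 250 bases before the start of COL6A6 on the plus strand of chromosome 3, chr3:130516927-130517176, and those of COL12A1 on the minus strand of chromosome 6, chr6:75206054-75206303, are shown since these genes had the opposite direction on Day 16. The capitals mark the GC box letters GGGCGG and their reverse complement CCGCCC.
COL6A6: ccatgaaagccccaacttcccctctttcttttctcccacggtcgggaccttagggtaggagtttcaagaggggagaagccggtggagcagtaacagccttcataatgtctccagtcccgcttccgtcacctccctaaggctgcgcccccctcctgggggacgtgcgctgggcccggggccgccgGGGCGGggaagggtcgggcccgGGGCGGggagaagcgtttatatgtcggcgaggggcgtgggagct
COL12A1: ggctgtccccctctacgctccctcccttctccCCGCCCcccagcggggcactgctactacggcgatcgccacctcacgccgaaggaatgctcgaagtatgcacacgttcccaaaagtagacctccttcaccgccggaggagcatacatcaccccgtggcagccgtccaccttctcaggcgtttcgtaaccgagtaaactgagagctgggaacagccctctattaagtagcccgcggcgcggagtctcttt

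GGGCGG was found on either strand in 42.6% of all RefSeq windows of this length and in 24 of the 44 collagen windows, with 2 matches for COL6A6 and 1 for COL12A1, and neither of the pair held CCAAT.

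On Day 12, COL6A3 was the only beaded filament gene called in P-DF cells, at 0.14 and 0.12 FPKM against 5.61 and 4.67 in static cells (-5.23 ± 1.04, adjusted p = 0.0291). COL6A1 (51.5 and 38.5 against 105 and 109 FPKM, adjusted p = 0.118), COL6A2 (25.3 and 14.7 against 93.4 and 106 FPKM, adjusted p = 0.0634) and COL6A6 (0.16 and 0.08 against 6.27 and 10.3 FPKM, adjusted p = 0.0982) had non-overlapping libraries as well but were not called. Of all genes tested, 41.2% likewise had both P-DF libraries under both static ones. In P-IWP2 cells on Day 12 none of the 5 beaded filament genes was called, and the replicates were far apart. COL6A6 was at 36.8 FPKM in replicate 5, above all other 11 libraries, and at 0.12 in replicate 6, and COL6A1, COL6A2 and COL6A3 were at 176, 156 and 3.75 FPKM in replicate 5 and at 54.4, 29.0 and 0.20 in replicate 6. Without replicate 5, all 5 genes were called lower in P-DF cells and 4 of 5 in P-IWP2 cells on Day 12. In that fit 13.6% (P-DF) and 9.57% (P-IWP2) of all genes tested were called lower. The ratio of COL6A1 to COL6A2 FPKM was 0.849 to 1.13 in static libraries, 1.12 in replicate 5 and 1.69 to 2.62 in the other passaged libraries. It was not tested.

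FACIT genes went in both directions. COL12A1, which bridges fibrils in tissue under load, was at 1.48 and 0.83 FPKM in static cells on Day 16, 13.3 and 12.9 in P-DF cells and 18.0 and 22.1 in P-IWP2 cells. It rose by 3.72 ± 0.43 (adjusted p = 0.0011) and 4.38 ± 0.44 (adjusted p = 0.000506) on the log2 scale, and both calls were made in all 12 fits that left out a library. On Day 12 it was under 0.5 FPKM in all 6 libraries, and the differences were not called (0.92 ± 0.44, adjusted p = 0.26, and -0.31 ± 0.47, adjusted p = 0.903).

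Collagen IX coats cartilage fibrils and is built of COL9A1, COL9A2 and COL9A3, and these chains went different ways. COL9A1 was at 1.34 and 1.22 FPKM in static cells on Day 16, 6.04 and 5.23 in P-DF cells and 5.63 and 4.65 in P-IWP2 cells (2.36 ± 0.28, adjusted p = 0.00122, and 2.27 ± 0.28, adjusted p = 0.00133). On Day 12 it was at 1.19 and 1.43 FPKM in static cells, 1.59 and 1.66 in P-DF cells and 4.42 and 1.89 in P-IWP2 replicates 5 and 6, and it was not called (0.40 ± 0.27, adjusted p = 0.424, and 1.21 ± 0.27, adjusted p = 0.071). COL9A3 was lower in all 4 comparisons (-2.02 and -3.75 with P-DF, -1.52 and -2.92 with P-IWP2), with adjusted p of 0.000471, 1.61e-05, 0.00184 and 4.31e-05. Its static libraries held 10.2 to 14.0 FPKM, and its passaged ones 3.11 to 5.88 on Day 12 and 0.65 to 1.24 on Day 16. Its gene span overlaps that of TCFL5, which reached 6.64 FPKM on the opposite strand. Reads in bases that the pair share cannot be told apart without strand, and the overlap of exons was not examined. COL9A2 was called lower in P-DF cells on both days and in P-IWP2 cells on Day 16, but from at most 1.21 FPKM. The ratio of COL9A3 to COL9A1 FPKM was 7.63 to 11.0 in static libraries and 0.114 to 0.267 in passaged libraries on Day 16.

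COL14A1, another fibril-bound chain, was at 35.6 and 44.3 FPKM in static cells on Day 16, 0.95 and 0.88 in P-DF cells and 0.20 and 0.19 in P-IWP2 cells (log2 fold changes -5.21 and -7.37). Its highest value, 96.1 FPKM, was in P-IWP2 replicate 5 on Day 12, with 4.01 in replicate 6. COL21A1, a chain of blood vessel walls, was at 0.34 and 0.24 FPKM in P-DF cells on Day 12 against 13.3 in both static libraries (-5.44 ± 1.16, adjusted p = 0.037), and P-IWP2 replicates 5 and 6 were at 12.3 and 0.39 (-1.19 ± 0.91, adjusted p = 0.728). On Day 16 it was at 22.4 and 23.1 FPKM in P-DF cells and 18.1 and 14.96 in P-IWP2 cells against 21.5 and 24.3 in static cells, and no difference was called (0.23 ± 0.89, adjusted p = 0.886, and -0.19 ± 0.89, adjusted p = 0.903). The gap of Day 12 was thus not seen on Day 16. The sign for P-DF cells on Day 16 changed to -0.01 when total counts were used for scaling.

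COL19A1 was called higher in P-DF cells on Day 16 (2.04 ± 0.56, adjusted p = 0.039), at 0.49 and 0.63 FPKM against 0.11 and 0.21, and not in P-IWP2 cells (0.54 and 0.21 FPKM, 1.48 ± 0.56, adjusted p = 0.0973). Its gene span overlaps that of LMBRD1 on the opposite strand, which reached 4.35 FPKM. Reads in bases that this pair share cannot be told apart without strand, and the overlap of exons was not examined. COL16A1 was between 3.45 and 11.0 FPKM in every library and was not called between passaged and static cells, but without the Day 12 library P-IWP2 replicate 5 it was called higher on Day 16, by 0.32 for P-DF (adjusted p = 0.0473) and 0.48 for P-IWP2 (adjusted p = 0.00543). COL22A1, a chain of muscle and tendon junctions, was at 37.2 and 39.1 FPKM in static cells on Day 12 and 33.6 to 39.0 in 3 of the 4 passaged libraries, and on Day 16 it was at 15.1 and 16.8 FPKM against 9.05 to 17.3, without a call.

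**Figure D5:**
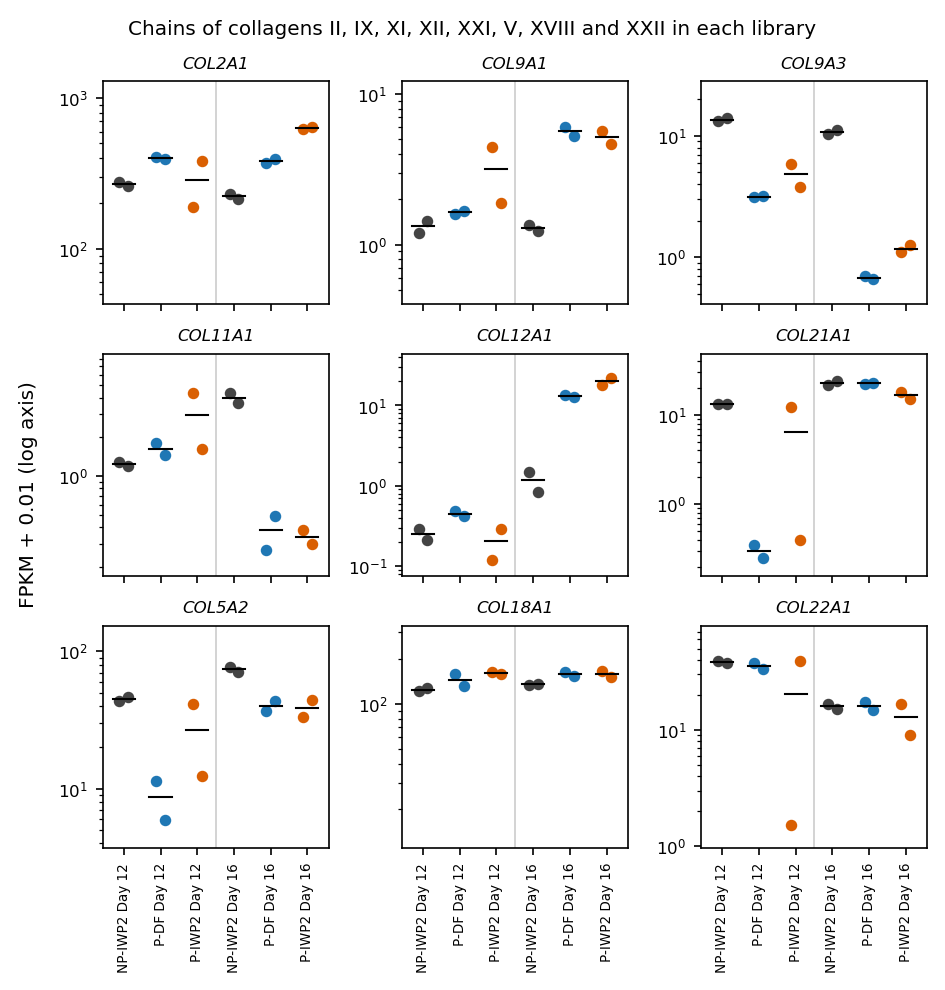
FPKM + 0.01 (log axis) of 9 further collagen genes in the 2 libraries of each group (points; black lines are group means; the grey line separates the days). COL12A1 and COL9A1 are higher and COL9A3 and COL11A1 lower in the passaged libraries of Day 16, while COL21A1 is low in 3 of 4 passaged libraries on Day 12 and near the static level on Day 16.

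COL18A1, a heparan sulfate-bearing multiplexin of basement membranes and the source of endostatin, was one of the most even members, at 122 to 137 FPKM in static libraries and 132 to 165 in passaged ones. It was not called in any of the 4 comparisons (adjusted p = 0.284, 0.0833, 0.446 and 0.0571, P-DF before P-IWP2 and Day 12 before Day 16). Without the Day 12 library P-IWP2 replicate 5 it was called higher on Day 16, by 0.45 ± 0.12 for P-DF (adjusted p = 0.011) and 0.50 ± 0.12 for P-IWP2 (adjusted p = 0.00545). The other multiplexin, COL15A1, which links basement membranes to the fibrils beneath, was at 3.59 and 4.57 FPKM in static cells on Day 12 and 0.06 and 0.02 in P-DF cells (-6.57 ± 1.27, adjusted p = 0.0327). P-IWP2 replicates 5 and 6 were at 0.88 and 0.02 FPKM (-3.28 ± 0.99, adjusted p = 0.195). On Day 16 COL15A1 had 116 counts in each static library, 0 in both P-DF libraries, which is at least 35.7-fold lower, and 1 and 4 in the P-IWP2 libraries (-5.28 ± 1.35, adjusted p = 0.032).

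Among the transmembrane collagens, COL23A1 and COL25A1 were lower on Day 16 in both treatments. COL23A1 fell from 3.81 and 4.25 FPKM to between 0.29 and 0.83 (-2.20 and -2.92), and COL25A1, a chain of neurons and developing muscle, from 5.54 and 6.55 FPKM to between 0.50 and 1.57 (-2.09 and -2.30). COL13A1 was at 0.66 to 7.17 FPKM and not called, and without the Day 12 library P-IWP2 replicate 5 it was called for P-IWP2 in opposite directions, 0.97 on Day 12 (adjusted p = 0.0112) and -0.65 on Day 16 (adjusted p = 0.0394). Of the short-chain network genes, which form lattices under endothelia and in growth cartilage, COL8A2 was lower in all 4 comparisons, from 1.43 to 2.19 FPKM in static libraries to at most 0.11 in passaged ones (-5.05 ± 0.75, adjusted p = 0.00987, and -5.58 ± 0.77, adjusted p = 0.0023, in P-DF cells and -4.66 ± 0.71, adjusted p = 0.0145, and -4.31 ± 0.68, adjusted p = 0.00409, in P-IWP2 cells). The passaged values of COL8A2 rested on 0 to 9 counts per library.

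COL8A1 was called lower in P-DF cells on Day 16 (0.39 and 0.42 FPKM against 4.40 and 5.13), while P-IWP2 replicates held 0.97 and 3.61 FPKM. COL10A1 was called lower in P-IWP2 cells on Day 16 from under 1 FPKM, and it overlaps NT5DC1 on the opposite strand. COL7A1, the anchoring fibril chain, was at 11.1 to 16.7 FPKM on Day 12 and at 3.57 to 7.04 FPKM on Day 16, with no call between treatments. COL26A1, which belongs to none of the larger classes, was lower in all 4 comparisons (-2.86 ± 0.33, adjusted p = 0.00312, and -5.63 ± 0.39, adjusted p = 9.18e-05, in P-DF cells and -1.66 ± 0.30, adjusted p = 0.0304, and -5.59 ± 0.38, adjusted p = 9.56e-05, in P-IWP2 cells). It stood at 12.7 and 12.9 FPKM in static cells on Day 16 and at 0.21 to 0.22 in all 4 passaged libraries. COL28A1 stayed under 1 FPKM without a call.

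The comparison of P-IWP2 with P-DF cells asks what the WNT inhibitor adds once cells are passaged. DESeq2 called 5 of the 41 genes on Day 12 and 0 on Day 16 (0.887% and 0.574% of all genes). The edgeR test called 0 of the 41 on either day (0% of all genes tested on both days). Leaving out the Day 12 replicate 5 or replicate 6, which are in neither group of the Day 16 comparison but enter the common estimate of the spread, gave 7 calls on Day 16. Without replicate 5, 2.49% of all genes tested were called. COL1A1 (0.96 ± 0.15, adjusted p = 0.00705), COL1A2, COL2A1, COL5A1 and COL9A3 were then higher with IWP2, and COL3A1 (-1.94 ± 0.31, adjusted p = 0.0075) and COL14A1 were lower. With all libraries the same differences were 0.96 ± 0.77 for COL1A1 (adjusted p = 0.811) and -1.95 ± 1.15 for COL3A1 (adjusted p = 0.721).

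From Day 12 to Day 16, static cells had 2 collagen genes called, COL11A1 (1.83 ± 0.39, adjusted p = 0.0489) and COL12A1 (2.37 ± 0.44, adjusted p = 0.0329), both higher, where 1.98% of all genes were called, 0.877% higher and 1.1% lower. In P-DF cells 9 genes rose and 6 fell (13.6% of all genes called, 6.79% higher and 6.81% lower). COL12A1 (5.17), COL21A1 (6.56), COL5A2 (2.46), COL9A1 (2.05), COL19A1, COL16A1, COL11A2, COL4A1 and COL4A2 rose, and COL9A3, COL26A1, COL11A1, COL23A1, COL25A1 and COL7A1 fell. In P-IWP2 cells 5 rose and 16 fell (27% of all genes called, 12.9% higher and 14.1% lower), with COL12A1 (7.07), COL19A1, COL2A1 (1.53), COL5A1 and COL9A1 among the rises. Their Day 12 mean includes replicate 5, and without it 24 were called, 9 higher and 15 lower (23.7% of all genes, 12.4% higher and 11.3% lower). P-DF cells then had 24 calls, 11 higher and 13 lower (29.2% of all genes, 15.1% higher and 14.1% lower), so that falls outnumbered rises there. Static cells had 22, 18 higher and 4 lower (17.1% of all genes, 9.23% higher and 7.91% lower). With total counts for scaling, 5 rose and 7 fell in P-DF cells (16.4% of all genes called).

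The interaction of treatment and day tests whether the difference from static cells itself differed between the days. It was called for 2 collagen genes in P-DF cells, both lower (0.482% of all genes, 0.174% higher and 0.308% lower), and for 7 in P-IWP2 cells, 1 higher and 6 lower (1.84%, 0.774% higher and 1.06% lower). In both treatments, COL11A1 and COL9A3 had a lower log2 fold change on Day 16 than on Day 12. Without the Day 12 library P-IWP2 replicate 5, the calls were 12 for P-DF, 4 higher and 8 lower (7.62% of all genes, 3.57% higher and 4.05% lower), and 15 for P-IWP2, 4 higher and 11 lower (7.89% of all genes, 3.86% higher and 4.03% lower), and COL21A1 (5.67 ± 0.19 and 4.79 ± 0.22, adjusted p = 5.99e-09 and 2.24e-07) and COL9A1 were then among them in both treatments. With all libraries the interaction of COL21A1 was 5.67 ± 1.44 (adjusted p = 0.141) in P-DF cells and 1.00 ± 1.26 (adjusted p = 0.691) in P-IWP2 cells.

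Chains of collagen are hydroxylated and folded in the endoplasmic reticulum, trimmed outside the cell, cross-linked by lysyl oxidases and bound by integrins and discoidin domain receptors. Of 41 genes of these steps, 16 were lower and 3 higher in P-DF cells on Day 16, and 12 lower and 5 higher in P-IWP2 cells, with median log2 fold changes of -0.67 and -0.53. Of all genes tested, 9.86% were lower and 5.39% higher in the first comparison, and 9.95% lower and 7.15% higher in the second. On Day 12, 6 and 2 were lower and 0 higher in either treatment. There, 3.32% (P-DF) and 1.33% (P-IWP2) of all genes tested were lower, and 0.697% and 0.328% higher. These pathway counts come from the fit of all 12 libraries, replicate 5 included. LOX, the lysyl oxidase that cross-links collagen and elastin, fell by 6.54 and 5.99 on the log2 scale on Day 16 (adjusted p = 0.000199 and 0.000297), and its relatives LOXL1 and LOXL3 were lower too. Among the enzymes of the endoplasmic reticulum, P3H1 (-2.28 and -2.07) and P3H3 (-3.45 and -3.53), which hydroxylate prolines, were lower, and COLGALT2 (1.28 and 1.52), which adds galactose, was higher. ADAMTS2, which removes the amino-terminal propeptide of fibrillar collagens, was lower (-2.69 and -3.59). Of the receptors, the collagen-binding integrin chain ITGA11 was lower (-3.74 and -3.79) and DDR1 was higher (0.59 and 0.89) in both treatments. In P-DF cells 3 of the 8 receptors were lower, the others being ITGA1 and DDR2, and 1 was higher. In P-IWP2 cells 1 was lower and 3 higher, with the integrin chains ITGA2 (0.95) and ITGB1 (0.79) beside DDR1.

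Marker lists of other cell types were summed in FPKM, and some but not all moved with the collagen genes. The sum of 8 fibroblast markers other than collagens was 160 to 266 in static libraries and 5.63 to 14.4 in passaged ones other than replicate 5, which was at 111. In replicate 5 that sum was mostly FBLN2 (58.8 FPKM) and PDGFRA (37.7 FPKM), while LUM, the most abundant of the list in static cells at 73.2 to 183 FPKM, was at 0.55 FPKM. Of these markers, DCN was at 0 counts in 2 passaged libraries and at most 0.02 FPKM in 7. The sum of 7 epicardial markers was 40.3 to 99.5 in static libraries, 140 in replicate 5 and 0.36 to 0.86 in the other passaged libraries. In the latter, TBX18 and TCF21 were at most at 0.08 FPKM. In replicate 5 the epicardial sum was mostly TBX18 (106.06 FPKM). TBX18, TCF21 (21.26 FPKM) and WT1 (6.36 FPKM) were above both static libraries of Day 12 there. BNC1 and UPK3B went the other way, at 5.91 and 0.1 FPKM in replicate 5. The Day 12 static libraries held 11.65 and 13.02 FPKM of BNC1, and 1.49 and 1.64 of UPK3B. ALDH1A2 and MSLN were under 1 FPKM in all these libraries. The sum of 7 hepatic markers, led by AFP, was 425 to 879 in static libraries and 5.71 to 20.1 in all 8 passaged libraries, replicate 5 included at 8.11. The sum of 8 cardiomyocyte markers on Day 12 was 4376.2 and 4970.8 in static libraries, 2093.3 in replicate 5 and 4245 to 4594.3 in the other passaged libraries, so the ranges overlapped apart from replicate 5. On Day 16 it was 2635.1 and 3262.6 in static and 6515.4 to 8551 in passaged libraries. That sum was led by MYL7 and MYH7, and these, ACTN2, NKX2-5 and TTN were higher in every passaged library. MYH6 went the other way, at 436 and 417 FPKM in static and 71.0 to 146 in passaged libraries. TNNT2 and RYR2 overlapped between static and passaged libraries. The sum of 7 endothelial markers, most of it KDR, was 181 and 200 in static libraries on Day 12, 19.5 in replicate 5 and 161 to 233 in the other passaged libraries, and on Day 16 it was 49.9 and 50.1 in static and 10.1 to 15 in passaged libraries. TEK, an endothelial receptor, was at 10.1 to 11.5 FPKM in static libraries, 1.45 in replicate 5 and at most 0.12 in the other passaged libraries. On Day 12, PECAM1, CDH5, EMCN, TIE1 and VWF were at 0.23 to 6.05 FPKM in static libraries. They were at most at 0.07 FPKM in passaged libraries other than replicate 5, which held 1.18, 2.6, 1.81, 1.23 and 0.1 FPKM of them in turn. On Day 16 they were at most at 0.29 FPKM in every library. The sum of 5 smooth muscle markers on Day 12 was 173 and 213 in static libraries, 181 in replicate 5 and from 264 upward in the other passaged libraries, and on Day 16 the ranges overlapped. On Day 12, COL1A1, COL3A1 and COL6A6 in replicate 5 were at the static level or above it. In that library the epicardial sum, mostly TBX18, was above every static library, the fibroblast sum under them and the hepatic sum low. The part of these cell types in the collagen differences was not tested.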

How the data were processed

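Bulk RNA sequencing was done on 12 libraries, 2 for each of 6 groups. The authors deposited read counts per gene, made per the labels' processing notes with cutadapt 1.9.1, HISAT2 2.0.1 and HTSeq 0.6.1 on hg38, and FPKM values. The annotation release and the strand setting of the counting are not given in the sources used here. The deposited FPKM equaled count per exon length and library total, within 0.01, in 100% of values, so they follow total counts, whereas the tests used TMM factors. The table also holds gene annotation columns, of which exon length, symbol and position were used.

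Counts were fitted in 1 model of all 6 groups with edgeR 4.0.16 (filterByExpr, quasi-likelihood test, Benjamini-Hochberg adjustment over all genes tested, threshold 0.05) in R 4.3.3 with limma 3.58.1. DESeq2 1.42.0, RLE and total count scaling, no filter, fits of only the groups compared, a replicate block and leaving out each library were alternatives. The steps were tested on simulated data with the real depths and spread. For P-DF against static cells on Day 16, 11 of 100 simulated 2-fold changes and 58 of 100 4-fold changes were called. There were 6 false calls. Many changes of these sizes were thus missed, so a gene not called may still differ. Counting limits for a gene at 0 took 3 counts per library (0.156 to 0.202 CPM) and cover counting error only. Figures were drawn with matplotlib 3.10.9 under Python 3.11.15 (pandas 2.3.3, numpy 2.4.6).

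Genes given in full were COL1A1, COL3A1, COL4A1 and COL6A6, their chain partners, and in each comparison of passaged with static cells the 3 largest rises and falls among called members. COL5A2, COL9A3, COL11A1, COL14A1 and COL18A1 were described further after their values were seen. The members, classes and lists were chosen with earlier results of these data known.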

Additional observations from a re-analysis of the deposited data

Results flagged for a closer look

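The difference between passaged and static cells itself differed between Day 12 and Day 16 for several collagen genes, by the interaction of treatment and day in edgeR's quasi-likelihood test with Benjamini-Hochberg adjustment. Each value is the log2 fold change on Day 16 minus that on Day 12. In P-DF cells it was -3.68 for COL11A1 (adjusted p = 0.034) and -1.73 for COL9A3 (adjusted p = 0.0208). In P-IWP2 cells it was -4.54 for COL11A1 (adjusted p = 0.0119), -1.39 for COL9A3 (adjusted p = 0.0218), -2.41 for COL23A1 (adjusted p = 0.0218) and -3.94 for COL26A1 (adjusted p = 0.0119).

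COL12A1 was the gene with a positive value, 4.69 in P-IWP2 cells (adjusted p = 0.012). COL6A3 (-7.76, adjusted p = 0.05) and COL14A1 (-8.97, adjusted p = 0.0295) had the widest values in P-IWP2 cells, and for both the Day 12 replicates 5 and 6 were far apart, at 3.75 and 0.20 FPKM and at 96.1 and 4.01 FPKM. Without replicate 5 all 9 differences were still called, with COL6A3 at -4.66, COL14A1 at -5.53 and COL12A1 at 4.11. None of the 9 was called in every fit that left out 1 library.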

How the results depend on the processing

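The counts of collagen genes called depended on how the spread was estimated. For P-DF against static cells on Day 12 (12 calls), DESeq2 gave 19, fitting only the groups compared 25 and no filter 24. Of all genes tested, 8.22%, 29.8% and 7.7% were called in these fits. For P-IWP2 against static cells on Day 12 (5 calls), only the groups compared gave 0 and no filter 22 (0% and 3.79% of all genes). For passaged against static cells on Day 16, all alternatives other than leaving out a library stayed within 1.5 times of the 26 and 25 calls. There, 11.6% to 40.1% of all genes were called for P-DF and 12.3% to 29.2% for P-IWP2. For P-IWP2 against P-DF cells (0 calls on both days), DESeq2 gave 5 and no filter 19 on Day 12 (0.887% and 4.18% of all genes). On Day 16 only the groups compared gave 6 and no filter 11 (1.56% and 1.6%). From Day 12 to Day 16 in static cells (2 calls), total counts gave 1, no filter 22 and only the groups compared 28 (1.91%, 5.07% and 28.3% of all genes). In P-DF cells (15 calls), no filter gave 23 and only the groups compared 24 (9.5% and 37.3%). In P-IWP2 cells (21 calls), they gave 32 and 0 (15.9% and 0%). The interactions (2 and 7 calls) gave 14 and 25 without the filter, 15 and 1 with only the groups compared, and 8 and 14 with DESeq2. Of all genes, 2.79% and 6.77% were called for these interactions without the filter. The shares were 13% and 0.194% with only the groups compared, and 2.57% and 7.31% with DESeq2. The causes were not tested.

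Replicate numbers did not pair the samples (correlation of same-numbered deviations 0.196, 0.001 and -0.051). With the number as a replicate block, static cells had 1 call over time (0.79% of all genes) and the P-DF interaction 0 (0.0615%). P-DF and P-IWP2 cells over time and the P-IWP2 interaction had 12, 19 and 6 (9.52%, 23.9% and 1.99%).

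Leaving out 1 library at a time gave 1 to 23 and 9 to 29 calls for P-DF cells on Day 12 and Day 16, 1 to 22 and 11 to 30 for P-IWP2 cells, 0 to 26 and 0 to 7 for P-IWP2 against P-DF cells, 0 to 22, 3 to 24 and 6 to 31 over time in static, P-DF and P-IWP2 cells, and 0 to 12 and 0 to 28 for the interactions. Over time, the fewest calls came without the Day 12 P-DF replicate 4 and without the Day 16 P-IWP2 replicate 6. Of the calls on Day 16, 9 of 26 in P-DF cells and 11 of 25 in P-IWP2 cells were made in all 12 such fits. The share of all genes called also varied widely between these fits. A group left with 1 library was assumed to vary like the others.

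Signs changed for uncalled genes. In P-IWP2 cells on Day 12, the values without replicate 5 and without replicate 6 were -0.89 and 0.57 for COL6A1, -6.05 and 2.01 for COL6A6, 0.26 and -1.27 for COL12A1, 0.29 and -2.11 for COL19A1, 0.59 and -0.65 for COL2A1, -5.14 and 0.08 for COL3A1, and -1.69 and 0.51 for COL6A2. Over all fits without 1 library, COL4A2 ranged from -0.12 to 0.31 in P-DF cells on Day 12 and from -0.06 to 0.31 in P-IWP2 cells on Day 16, and COL4A1 from -0.27 to 0.23 in P-DF cells on Day 16. With total counts COL4A2 in P-IWP2 cells on Day 16 became -0.16 and COL21A1 in P-DF cells -0.01, while the median of all genes moved on Day 16 to -0.25 (P-DF) and -0.31 (P-IWP2), to -0.11, -0.28 and -0.49 over time, to -0.16 and -0.34 for the interactions and to 0.11 for P-IWP2 against P-DF cells on Day 12. With 2 libraries per group and passaged levels of a few counts for COL6A3, COL6A5, COL6A6, COL8A2 and COL15A1, the size of their falls is poorly bounded.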
